A study of Mus musculus with 9 samples.

Results

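Astrocyte and Bergmann glia genes were followed through 2 kinds of mouse medulloblastoma and normal cerebellum. The set holds 37 genes given by symbol, of 23360 genes listed in each library, and every one was found in the tables. All were among the 14337 genes that passed the filter and were tested, a filter that the 3 cerebellum libraries alone could satisfy. Tumours labelled A1G came from Math1-cre;A1G;Ptch1+/- mice and tumours labelled Ptch1 from Ptch1+/- mice, both of mixed strain and both carrying the disrupted Ptch1 copy. Cerebellum came from wild-type adult C57BL/6 mice, so tissue, genotype and strain change together in any comparison with it. Math1 is the older name of Atoh1, whose regulatory sequences drive Cre in the granule neuron lineage. No source used here gives the age of the tumour-bearing mice. Each group had 3 libraries of ribosome-depleted total RNA from whole tissue, with 2350941 to 9290237 fragments assigned to genes. The labels number the replicates without saying whether each is a separate animal, so a p-value here measures only how libraries spread, which may be technical.

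Astrocytes buffer ions and water, clear transmitters, supply neurons with metabolites and couple to each other through gap junctions. The cerebellum has a specialised form, the Bergmann glia, whose cell bodies sit beside the Purkinje cells and whose fibres ensheath their synapses and guide migrating granule neurons in development. Medulloblastomas of the Hedgehog group arise from granule neuron progenitors, a neuronal lineage, and hold astrocytes as part of the surrounding tissue. In RNA from whole tissue, fewer cells of a type and less RNA per cell cannot be told apart.

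Of the 37 genes, 32 fell in tumours relative to cerebellum. None rose in edgeR, also at an unadjusted p under 0.05, or in DESeq2. Their tumour and cerebellum libraries did not overlap. Among all tested genes 21.5% fell, 20.7% rose, and 19.7% were lower without overlap. The log2 difference, taken as the mean of the tumour groups minus cerebellum, had a median of -3.35 over the 37 genes and of 0.01 over all tested genes. It was -3 or less for 24 of the 37, against 5.36% of all tested genes. The 5 that did not pass were Gfap, the intermediate filament protein by which astrocytes are most often recognised, the GABA transporter gene Slc6a11, the tissue factor gene F3, and the secreted growth factor and BMP antagonist genes Ptn and Chrdl1. A gene was called when its adjusted p in edgeR's quasi-likelihood test was under 0.05, after correction over the whole table by the method of Benjamini and Hochberg.

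**Figure D1:**
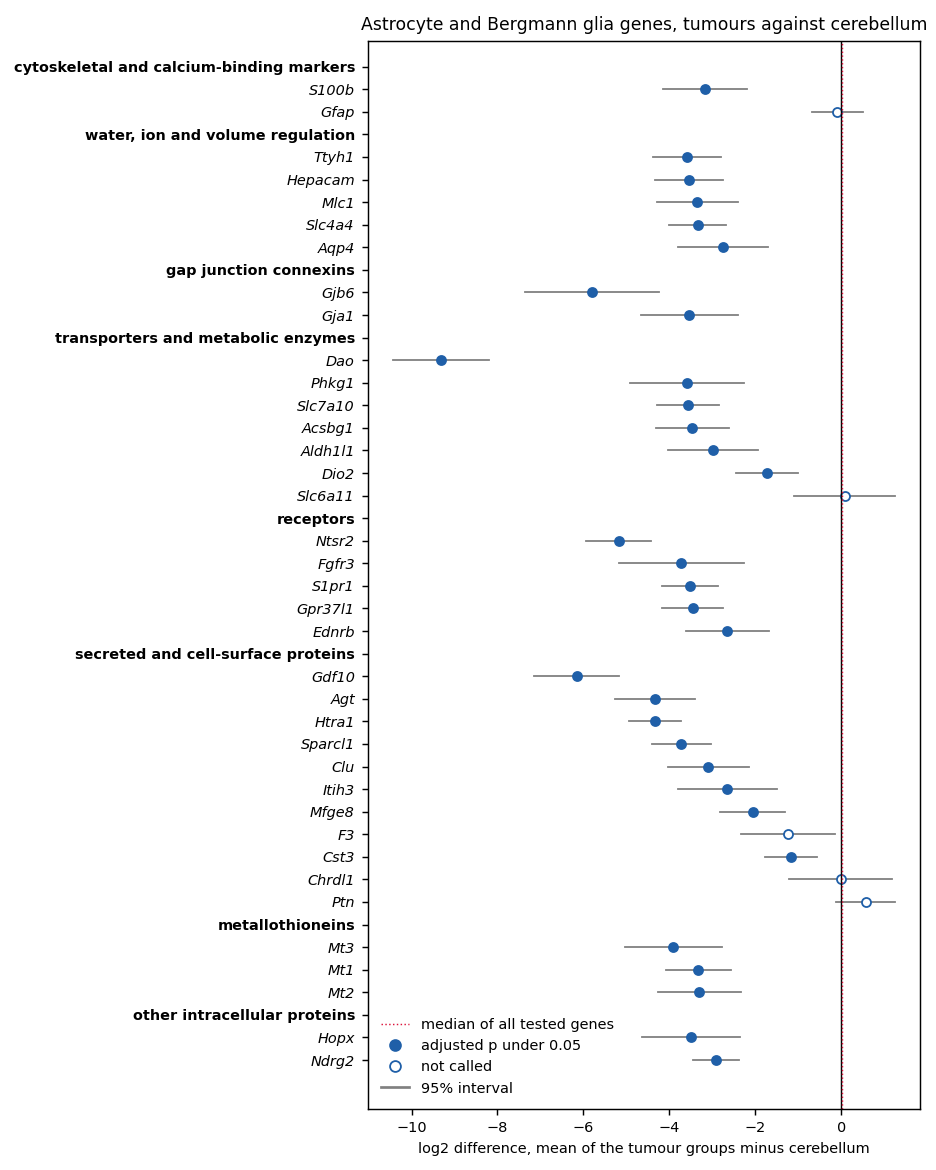
Log2 difference between the mean of the tumour groups and cerebellum (x axis) for each of the 37 genes (y axis, grouped by role), with 95% intervals as grey lines, filled points for adjusted p under 0.05 and open points for genes not called. The 32 filled points lie between -9.32 for Dao and -1.17 for Cst3, and the open points of Gfap, Slc6a11, Ptn and Chrdl1 have intervals that span 0.

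Levels below are counts-per-million (CPM) normalised by TMM over all 9 libraries, given in replicate order 1, 2 and 3 within a group. Group values are mean ± SD, with n = 3 for each group and n = 6 for tumours together.

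The cytoskeletal and calcium-binding markers parted ways. Gfap (chromosome 11, 102887336 to 102900912, minus strand, mm10) was measured at 187.7, 209.3 and 134.5 CPM in A1G tumours, 102.1, 153.3 and 63.81 in Ptch1 tumours, and 148.2, 129.8 and 161.5 in cerebellum. The highest and the lowest of the 9 libraries were both tumours, and cerebellum lay between them. The log2 difference of tumours from cerebellum was -0.09 (SE 0.27, 95% interval -0.69 to 0.50, edgeR adjusted p = 0.813), an interval that leaves out a fall of the size seen in the median gene of the set. S100b, which encodes a calcium-binding protein abundant in astrocytes, was at 33.05, 26.74 and 45.53 CPM in A1G tumours, 55.94, 124 and 17.19 in Ptch1 tumours, and 501.3, 545.6 and 245.5 in cerebellum. Every tumour library was below every cerebellum library, and S100b fell by 3.16 on the log2 scale (SE 0.45, edgeR adjusted p = 0.000142).

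Genes of water, ion and volume regulation fell, 5 of 5, and their summed level in tumours was 11.7% of that in cerebellum. Aqp4, the water channel of astrocyte endfeet, was at 124.1, 72.76 and 172.3 CPM in A1G tumours, 81.29, 250.9 and 33.63 in Ptch1 tumours, and 1056, 894.6 and 519.9 in cerebellum. The tumour libraries spread widely, with the top and bottom values both in Ptch1 tumours, and none reached cerebellum. The log2 difference was -2.74 (SE 0.48, edgeR adjusted p = 0.000617). Slc4a4 (chromosome 5, 88886818 to 89239653, plus strand), the sodium bicarbonate cotransporter, was at 109.1, 69.96 and 196.9 CPM in A1G tumours, 44.07, 35.06 and 56.17 in Ptch1 tumours, and 580.7, 751.2 and 944.5 in cerebellum. The 3 groups did not overlap, in the order cerebellum, A1G tumours, Ptch1 tumours. Slc4a4 fell by 3.34 on the log2 scale in tumours (SE 0.31, edgeR adjusted p = 5.1e-06). Mlc1 and Hepacam encode partner membrane proteins of the perivascular endfeet. Mlc1 was at 11.6 ± 7.02 CPM in tumours and 120.7 ± 47.65 in cerebellum (log2 -3.35, edgeR adjusted p = 7.07e-05), and Hepacam at 7.575 ± 3.29 and 89.35 ± 35.5 CPM (log2 -3.54, edgeR adjusted p = 1.29e-05). Ttyh1, of a family proposed to form volume-regulated anion channels, was at 39.85 ± 18.7 CPM in tumours and 484 ± 80.4 in cerebellum (log2 -3.59, edgeR adjusted p = 1.08e-05).

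Both astrocyte connexins fell. Gja1, which encodes connexin 43, was at 7.345, 51.62 and 10.25 CPM in A1G tumours, 13.02, 17.36 and 3.821 in Ptch1 tumours, and 153.5, 190.4 and 235 in cerebellum. A1G replicate 2 stood above the other tumour libraries. Gja1 fell by 3.54 on the log2 scale (SE 0.52, edgeR adjusted p = 0.000182), with a log2 difference of -4.24 without A1G replicate 2. Gjb6 (chromosome 14, 57123303 to 57133611, minus strand), which encodes connexin 30, was at 0, 0.9328 and 6.152 CPM in A1G tumours, 0, 0.3361 and 0 in Ptch1 tumours, and 41.64, 37.6 and 35.84 in cerebellum. It had no fragment in 3 of the 6 tumour libraries. Ptch1 tumours held 3 Gjb6 fragments in all and cerebellum 463, which is 0.494% of the cerebellum level (95% exact interval for counting error only, 0.102% to 1.45%). The fitted log2 difference for both tumour kinds was -5.80 (SE 0.71, edgeR adjusted p = 4.57e-05), and with so few fragments it moved to -6.86 without A1G replicate 3 and to -7.06 without Ptch1 replicate 2.

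Among transporters and metabolic enzymes 6 of 7 fell. Dao (chromosome 5, 114003703 to 114025682, plus strand), the D-amino acid oxidase that degrades D-serine in cerebellar glia, was at 0, 0.6219 and 0 CPM in A1G tumours, 0.2283, 0 and 0 in Ptch1 tumours, and 129.9, 90.67 and 85.83 in cerebellum. It was the most deeply reduced gene of the set. The 6 tumour libraries held 3 Dao fragments together and the cerebellum libraries 1226, a level of 0.122% of cerebellum (95% exact interval for counting error only, 0.0252% to 0.358%). The fitted log2 difference was -9.32 (edgeR adjusted p = 1.72e-07), and it became -10.91 without A1G replicate 2 and -10.13 without Ptch1 replicate 1. Aldh1l1, a folate-pathway dehydrogenase widely used as a pan-astrocyte marker, was at 8.447, 9.95 and 8.613 CPM in A1G tumours, 5.252, 17.7 and 1.528 in Ptch1 tumours, and 88.27, 81.27 and 42.02 in cerebellum. The A1G libraries agreed closely, while the Ptch1 libraries held both the highest and the lowest tumour value. Aldh1l1 fell by 2.99 on the log2 scale (SE 0.49, edgeR adjusted p = 0.000363), with a log2 difference of -3.62 without Ptch1 replicate 2.

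Slc7a10, a carrier of D-serine and other small neutral amino acids, fell from 39.35 ± 6.13 CPM in cerebellum to 3.27 ± 1.13 in tumours (log2 -3.56, edgeR adjusted p = 5.85e-06). Acsbg1, an acyl-CoA synthetase, fell from 218.3 ± 74.65 to 19.6 ± 11.05 CPM (log2 -3.47, edgeR adjusted p = 2.57e-05), and Phkg1, a catalytic subunit of phosphorylase kinase, from 11.1 ± 2.59 to 0.873 ± 0.6655 CPM (log2 -3.58, edgeR adjusted p = 0.000542). The smallest fall of the group was that of Dio2, the deiodinase that makes active thyroid hormone, from 58.4 ± 13.5 to 17.7 ± 7.28 CPM (log2 -1.73, edgeR adjusted p = 0.00114). Slc6a11 (chromosome 6, 114131241 to 114249952, plus strand) was the exception. It was at 40.4, 6.219 and 10.25 CPM in A1G tumours, 47.5, 86.04 and 32.86 in Ptch1 tumours, and 14.67, 33.66 and 44.01 in cerebellum. All 3 groups overlapped, and the log2 difference of tumours from cerebellum was 0.08 (95% interval -1.10 to 1.25, edgeR adjusted p = 0.925), with a sign that depended on the library left out.

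All 5 receptor genes fell, to a summed level of 9.965% of cerebellum. Ntsr2 (chromosome 12, 16653382 to 16660227, plus strand), a neurotensin receptor of astrocytes, was at 3.673, 2.177 and 2.051 CPM in A1G tumours, 0.685, 0.5601 and 1.528 in Ptch1 tumours, and 47.93, 49.13 and 65.32 in cerebellum. As with Slc4a4, the 3 groups did not overlap, with cerebellum highest and Ptch1 tumours lowest. Ntsr2 fell by 5.18 on the log2 scale (SE 0.35, edgeR adjusted p = 5.33e-07). Gpr37l1, an orphan receptor of astrocytes, was at 83, 49.13 and 43.07 CPM in A1G tumours, 35.39, 42.35 and 12.99 in Ptch1 tumours, and 563.1, 436.7 and 396.7 in cerebellum (log2 -3.46, edgeR adjusted p = 6.69e-06). S1pr1, a receptor for a signalling sphingolipid, fell from 170.3 ± 15.1 to 14.8 ± 5.54 CPM (log2 -3.51, edgeR adjusted p = 2.84e-06). Fgfr3, a fibroblast growth factor receptor, fell from 71.1 ± 8.845 to 5.42 ± 5.12 CPM (log2 -3.72, edgeR adjusted p = 0.000762), and 1 A1G library held no fragment of it. Ednrb, an endothelin receptor, showed the smallest fall of the receptors, from 164.4 ± 32.5 to 25.9 ± 16.2 CPM (log2 -2.65, edgeR adjusted p = 0.000463).

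**Figure D2:**
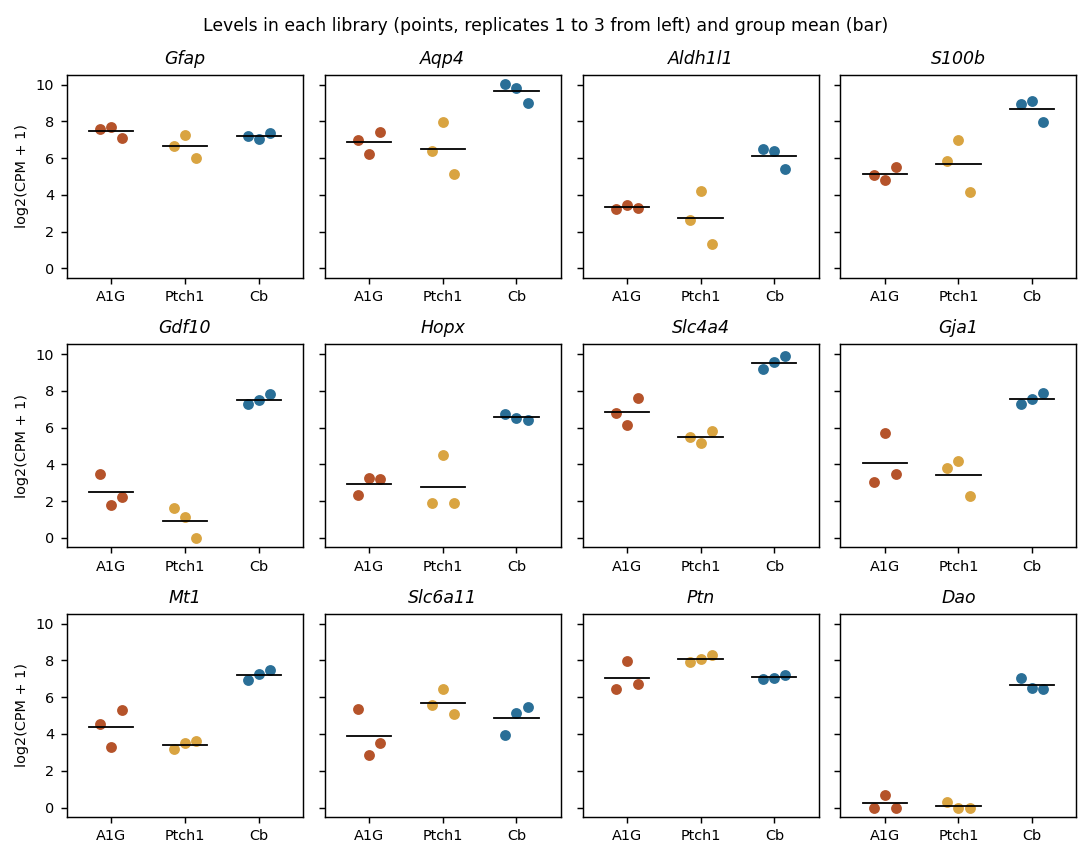
Level of 12 of the genes in every library as log2(CPM + 1) (y axis, shared), with A1G tumours, Ptch1 tumours and cerebellum (Cb) along the x axis, points for replicates 1 to 3 from left to right and a bar for the mean of the log2 values. Dao lies near 0 in all tumour libraries, whereas the tumour points of Gfap, Slc6a11 and Ptn lie on both sides of those of cerebellum.

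Of the 11 genes for secreted and cell-surface proteins 8 fell. Gdf10 (chromosome 14, 33923587 to 33937983, plus strand), a BMP-family ligand typical of Bergmann glia, was at 10.28, 2.487 and 3.691 CPM in A1G tumours, 2.055, 1.232 and 0 in Ptch1 tumours, and 152.4, 178.3 and 226.6 in cerebellum. The 3 groups did not overlap. Gdf10 fell by 6.15 on the log2 scale (SE 0.46, edgeR adjusted p = 1.1e-06), after Dao the largest fall of the set. Agt, the precursor of angiotensin, was at 6.978, 9.95 and 5.742 CPM in A1G tumours, 3.425, 10.98 and 1.146 in Ptch1 tumours, and 157.2, 109.2 and 135 in cerebellum. All 6 tumour libraries were far below cerebellum, with a log2 difference of -4.34 (SE 0.43, edgeR adjusted p = 9.08e-06) that became -4.94 without Ptch1 replicate 2. The secreted protease gene Htra1 fell by a like amount, from 197.3 ± 72.6 CPM to 9.77 ± 2.32 (log2 -4.33, edgeR adjusted p = 4.29e-07).

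Sparcl1, a matrix protein secreted by astrocytes that promotes synapse formation, was the most abundant of the 37 in cerebellum by FPKM, which corrects for gene length (1518 FPKM). It fell from 4553 ± 516.9 CPM to 367.5 ± 220 (log2 -3.72, edgeR adjusted p = 2.82e-06). Clu, an extracellular chaperone, fell from 384.7 ± 75.6 to 48.8 ± 36.4 CPM (log2 -3.10, edgeR adjusted p = 0.000122), and Mfge8, a protein that marks cells for phagocytosis, from 44.05 ± 3.81 to 10.5 ± 4.685 (log2 -2.06, edgeR adjusted p = 0.000475). The protease inhibitor gene Cst3 had the smallest fall of all 32, with 43.7, 43.84 and 51.68 CPM in A1G tumours, 124.2, 105.2 and 43.56 in Ptch1 tumours, and 143.3, 144.4 and 150.5 in cerebellum (log2 -1.17, edgeR adjusted p = 0.0049). Itih3, a hyaluronan-binding chain, was at 1.836, 1.866 and 7.383 CPM in A1G tumours, 30.37, 11.43 and 4.203 in Ptch1 tumours, and 53.69, 56.1 and 31.66 in cerebellum. Ptch1 replicate 1 came within reach of the lowest cerebellum library, and the log2 difference of tumours was -2.65 (SE 0.53, edgeR adjusted p = 0.00157).

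The other 3 secreted or surface proteins did not pass. Ptn (chromosome 6, 36714929 to 36810220, minus strand), the heparin-binding growth factor pleiotrophin, was at 85.57, 247.8 and 102.9 CPM in A1G tumours, 237, 272.1 and 315.2 in Ptch1 tumours, and 128.3, 130.4 and 144.4 in cerebellum. The A1G libraries lay on both sides of cerebellum and the Ptch1 libraries all lay above it, for a log2 difference of tumours from cerebellum of 0.57 (95% interval -0.11 to 1.26, edgeR adjusted p = 0.166). F3 was at 15.06, 6.53 and 10.66 CPM in A1G tumours, 25.12, 10.31 and 2.675 in Ptch1 tumours, and 19.38, 37 and 26.88 in cerebellum. Only Ptch1 replicate 1 reached into the cerebellum range, and the log2 difference was -1.24 (95% interval -2.33 to -0.14, edgeR adjusted p = 0.0657). The adjusted p was 0.0418 in DESeq2 and 0.0119 in edgeR without Ptch1 replicate 1. Chrdl1, which encodes an astrocyte-secreted BMP antagonist, was at 6.611, 0.9328 and 2.871 CPM in A1G tumours, 4.795, 5.601 and 7.642 in Ptch1 tumours, and 6.81, 3.336 and 3.584 in cerebellum. It was low in all groups, which overlapped (log2 -0.01, 95% interval -1.22 to 1.19, edgeR adjusted p = 0.988).

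The 3 metallothioneins, small cysteine-rich proteins that bind zinc and copper, lie in 1 cluster on mouse chromosome 8 (mm10, plus strand, Mt3 at 94152607 to 94154146, Mt2 at 94172664 to 94173568 and Mt1 at 94179082 to 94180327). Their coding sequences are shown because copies this alike can share fragments. Of 186 coding bases, Mt1 and Mt2 have 148 in common (79.6%), with a longest identical run of 20 bases, and each is 66.2% or 67.6% identical to Mt3. The bases at which Mt1 and Mt2 differ are in capitals in the GENCODE M21 transcripts.
Mt1: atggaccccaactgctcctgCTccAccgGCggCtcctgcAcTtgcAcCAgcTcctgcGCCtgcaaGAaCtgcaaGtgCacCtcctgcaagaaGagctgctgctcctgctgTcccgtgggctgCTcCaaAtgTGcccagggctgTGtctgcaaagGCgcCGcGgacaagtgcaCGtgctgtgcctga
Mt2: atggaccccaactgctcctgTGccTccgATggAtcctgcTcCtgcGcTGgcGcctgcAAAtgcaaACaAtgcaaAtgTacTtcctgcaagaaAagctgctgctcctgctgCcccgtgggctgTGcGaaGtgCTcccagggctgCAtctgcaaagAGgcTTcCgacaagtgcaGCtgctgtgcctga
The sources used here do not say how fragments matching both genes were assigned, so the split between Mt1 and Mt2 is uncertain. A further limit on Mt2 is that 73.5% of its exonic bases are overlapped by a gene on the opposite strand, Gm45774, and whether counting used strand is not stated.

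All 3 metallothioneins fell. Mt1 was at 22.04, 8.706 and 38.96 CPM in A1G tumours, 7.992, 10.19 and 11.08 in Ptch1 tumours, and 122.3, 152.8 and 176.4 in cerebellum. Mt2 was at 1.836, 1.244 and 3.691 CPM in A1G tumours, 0.9134, 0.6722 and 1.146 in Ptch1 tumours, and 13.88, 12.13 and 15.73 in cerebellum. Mt3, the brain-enriched form, was at 0.7345, 2.487 and 0.8203 CPM in A1G tumours, 6.85, 4.929 and 0.7642 in Ptch1 tumours, and 24.62, 29.42 and 58.55 in cerebellum. No tumour library reached cerebellum for any of the 3, and A1G replicate 3 had the highest Mt1 and Mt2 of the tumours while Ptch1 replicate 1 had the highest Mt3. The log2 differences were -3.33 for Mt1 (SE 0.35, edgeR adjusted p = 1.34e-05), -3.30 for Mt2 (SE 0.44, edgeR adjusted p = 9.1e-05) and -3.91 for Mt3 (SE 0.52, edgeR adjusted p = 8.81e-05).

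Mt1 and Mt2 are known to be induced by metals through a shared element, and their start regions are shown. The part of that element in the fall of the 3 metallothioneins was not tested. Each region shown is the 250 bases before the RefSeq start on the plus strand of GRCm38.p6, at chr8:94178839-94179088 for Mt1 and chr8:94172368-94172617 for Mt2. The same window of Mt3 holds no match to the element. Capitals mark every match, on either strand, to the metal response element core, searched as TGCACNC or TGCGCNC.
Mt1: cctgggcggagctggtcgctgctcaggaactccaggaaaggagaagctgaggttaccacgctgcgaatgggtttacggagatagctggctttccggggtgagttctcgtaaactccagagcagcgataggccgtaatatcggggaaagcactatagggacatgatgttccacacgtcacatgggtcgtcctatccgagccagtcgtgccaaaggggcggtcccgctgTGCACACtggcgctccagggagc
Mt2: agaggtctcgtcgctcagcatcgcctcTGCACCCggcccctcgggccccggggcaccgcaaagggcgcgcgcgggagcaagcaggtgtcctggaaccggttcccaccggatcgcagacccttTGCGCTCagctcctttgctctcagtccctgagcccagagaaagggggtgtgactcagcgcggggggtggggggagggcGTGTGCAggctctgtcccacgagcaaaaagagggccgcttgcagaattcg
The Mt1 window holds 1 match and the Mt2 window 3. At least 1 match was present in 21.4% of 32851 such windows and 3 or more in 1.26%. Among 39 windows of the 32 genes of the set that could be matched by symbol, 10 (25.6%) held at least 1, a share near that of all windows. Further matches in Mt1, Mt2 and Mt3 lie between the annotated transcript start and the coding start (4, 3 and 3), outside these windows in whole or part.

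The remaining pair are intracellular. Hopx, a small homeodomain protein found in Bergmann glia and their progenitors, was at 4.04, 8.706 and 8.203 CPM in A1G tumours, 2.74, 22.07 and 2.675 in Ptch1 tumours, and 104.5, 91.89 and 85.23 in cerebellum. Ptch1 replicate 2 stood above the other tumour libraries. Hopx fell by 3.50 on the log2 scale (SE 0.53, edgeR adjusted p = 0.000209), with a log2 difference of -4.42 without Ptch1 replicate 2. Ndrg2, a cytoplasmic protein of astrocytes, was at 33.79, 35.45 and 36.5 CPM in A1G tumours, 66.9, 61.95 and 38.97 in Ptch1 tumours, and 423.3, 353 and 225 in cerebellum (log2 -2.91, edgeR adjusted p = 2.83e-06). Without a stated strand setting, reads of overlapping genes cannot be told apart, and exons of other genes overlap 27.2% of the exonic bases of Hopx, 17.9% of those of Slc7a10, 13.9% of Fgfr3 and 13.4% of Aldh1l1.

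Summed over the 37 genes, the level was 1297, 1264 and 1350 CPM in A1G tumours, 1610, 2389 and 985.8 in Ptch1 tumours, and 12210, 11040 and 9833 in cerebellum. Gfap made up 9.97% to 16.6% of that sum in A1G tumours, 6.34% to 6.47% in Ptch1 tumours and 1.175% to 1.64% in cerebellum, while Sparcl1 made up 15.9% to 22.0%, 24.6% to 32.5% and 40.5% to 41.8%. The ratio of Gfap to Aqp4 CPM was 1.512, 2.876 and 0.781 in A1G tumours, 1.256, 0.6107 and 1.898 in Ptch1 tumours, and 0.1404, 0.1451 and 0.3106 in cerebellum. All tumour ratios thus lay above all cerebellum ratios, since Aqp4 fell and Gfap was not called. Ranked by FPKM within each group, Gfap was number 4 of the 37 in A1G tumours, 6 in Ptch1 tumours and 21 in cerebellum. Ptn was number 3, 3 and 17, and Dao 37, 37 and 18. Cst3 was number 1 in both tumour groups, level with Sparcl1 in Ptch1 tumours, and 4 in cerebellum.

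Within groups, some libraries were high or low for many of the genes at once. Ptch1 replicate 3 was the lowest of the Ptch1 tumours for 28 of the 37 genes (75.7%, against 38% of all tested genes), and Ptch1 replicate 2 the highest for 21 (56.8%, against 38.1%). These were the Ptch1 libraries of lowest and highest depth, with 2699234 and 9290237 fragments, and the part of depth in this order was not tested. In cerebellum, replicate 1 was the highest for 18 genes (48.6%, against 37.9%) and replicate 3 the lowest for 22 (59.5%, against 40%). Cerebellum replicate 1 also held the summed choroid plexus and ependymal markers at 2752 CPM, of which the transthyretin gene Ttr gave 2671, compared with 37.6 and 83.24 CPM of Ttr in replicates 2 and 3. The part of such tissue in the level of the 37 genes was not tested. Without cerebellum replicate 1 the median log2 difference of the members from cerebellum was -3.30, without cerebellum replicate 3 it was -3.35, and without Ptch1 replicate 3 it was -3.33. It moved most without Ptch1 replicate 2, to -3.61, and for Ptch1 tumours alone to -3.83 from -3.25.

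A1G and Ptch1 tumours share the Ptch1 mutation and differ in carrying Math1-cre and the A1G allele, whose parts cannot be told apart here. None of the 37 genes was called between them (lowest edgeR adjusted p = 0.269), where 2 of all 14337 tested genes were (0.0139%). At an unadjusted p under 0.05 there were 15 of the 37 (40.5%, against 10.6% of all tested genes), in both directions. That number was 7 without Ptch1 replicate 1, 8 without A1G replicate 3, 10 without A1G replicate 1 and 12 to 15 without any other library. The log2 difference, A1G minus Ptch1, was positive for 19 of the 37, with a median of 0.00 beside 0.02 for all tested genes. The libraries did not overlap for 6 genes, or 16.2% of the 37, near the 15.5% of all tested genes. They were higher in A1G tumours for Gdf10, Slc4a4, Ntsr2, Mt2 and Gpr37l1 (5 of 37, against 6.68% of all tested genes) and lower for Ndrg2 (1 of 37, against 8.84%). Some of these rest on few fragments. Before scaling, Mt2 had 5, 4 and 9 in A1G and 4, 6 and 3 in Ptch1 tumours. Ntsr2 had 10, 7 and 5 in A1G and 3, 5 and 4 in Ptch1 tumours, and Gdf10 28, 8 and 9 and then 9, 11 and 0. The median of the 37 depended on the Ptch1 libraries, being 0.51 when replicate 2 of that group was left out and -0.44 when replicate 3 was.

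Slc4a4 had the smallest p of the set, with 125.3 ± 65.0 CPM in A1G and 45.1 ± 10.6 in Ptch1 tumours (log2 1.48, SE 0.37, 95% interval 0.66 to 2.29, edgeR adjusted p = 0.269). Gdf10 followed, at 5.49 ± 4.20 and 1.10 ± 1.03 CPM (log2 2.13, SE 0.65, 95% interval 0.71 to 3.55, edgeR adjusted p = 0.314), with a log2 difference of 1.30 without A1G replicate 1. DESeq2 called these 2 genes and no other of the 37, with adjusted p = 0.0264 for Slc4a4 and 0.0369 for Gdf10. Ntsr2 was at 2.63 ± 0.902 and 0.9245 ± 0.527 CPM (log2 1.66, 95% interval 0.54 to 2.79, edgeR adjusted p = 0.324), and Gjb6 at 2.36 ± 3.32 and 0.112 ± 0.194 CPM (log2 3.47, 95% interval 0.90 to 6.03, edgeR adjusted p = 0.351). With its few fragments Gjb6 moved to 1.35 without A1G replicate 3 and to 5.98 without Ptch1 replicate 2. In the other direction Itih3 was at 3.695 ± 3.19 CPM in A1G and 15.3 ± 13.5 in Ptch1 tumours (log2 -2.10, 95% interval -3.63 to -0.57, edgeR adjusted p = 0.343), a value that became -3.05 without A1G replicate 3 and -1.17 without Ptch1 replicate 1. Further genes with an unadjusted p under 0.05 were Gfap (log2 0.73, 95% interval 0.04 to 1.43), Mt1 and Gpr37l1, higher in A1G, and Sparcl1, Clu, Cst3, Mt3, Ndrg2, Slc6a11 and Ptn, lower. The log2 difference among the metallothioneins was 1.24 for Mt1 and 1.33 for Mt2 but -1.62 for Mt3, none of them called. Aqp4 and Aldh1l1 had log2 differences of 0.00 (95% interval -1.25 to 1.26) and 0.05 (95% interval -1.29 to 1.39), intervals that reach more than 1 log2 unit in each direction.

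**Figure D3:**
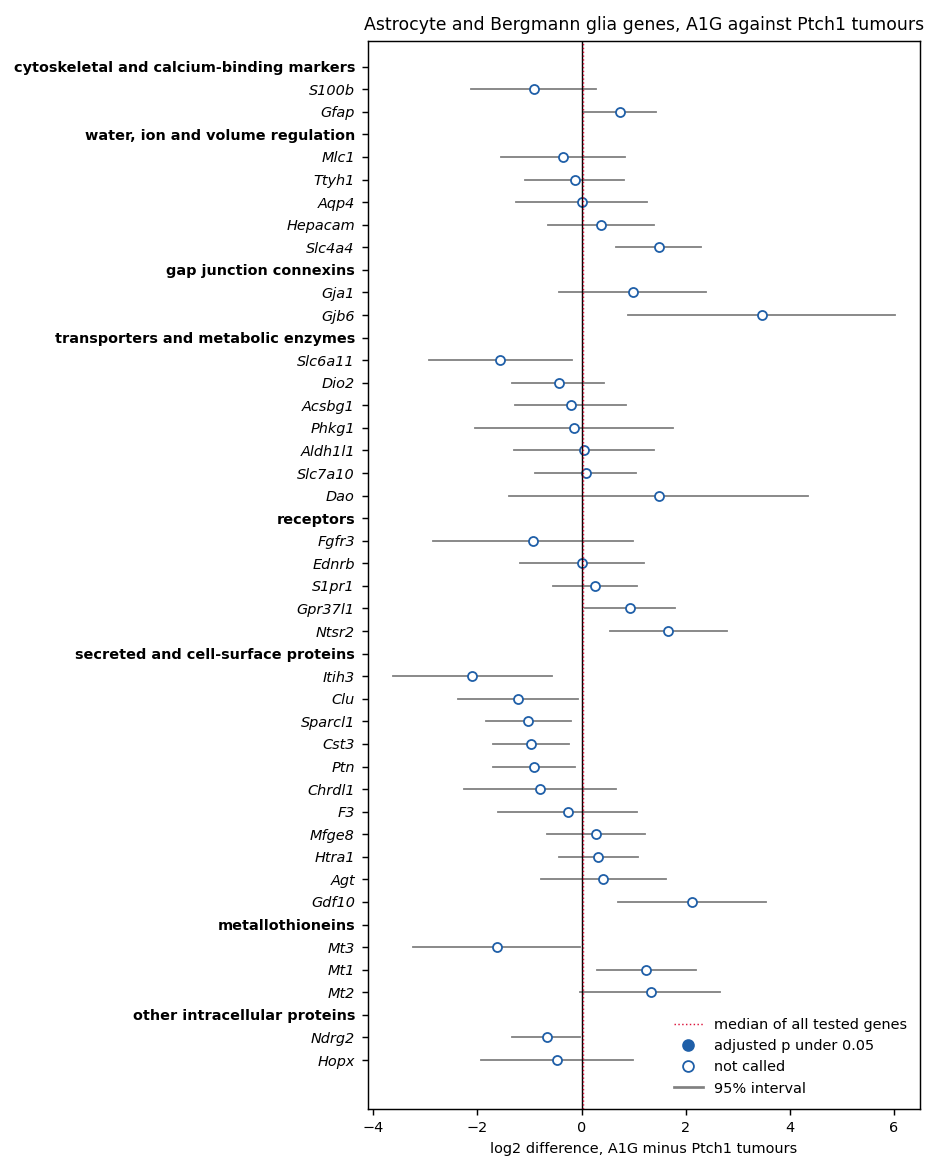
Log2 difference of A1G minus Ptch1 tumours (x axis) for each of the 37 genes (y axis, grouped by role), with 95% intervals as grey lines and open points for genes not called. All 37 points are open, from -2.10 for Itih3 to 3.47 for Gjb6, and 19 lie above 0.

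Set against cerebellum separately, the tumour kinds share the 3 cerebellum libraries, so their results are given side by side. In A1G tumours 32 of the 37 genes fell and none rose in edgeR, also at an unadjusted p under 0.05, or in DESeq2 (16.1% of all tested genes fell and 16.3% rose), with a median log2 difference of -3.38. In Ptch1 tumours 30 fell and 1 rose (19.7% and 20.2% of all tested genes), with a median of -3.25. The gene that rose was Ptn, by 1.03 on the log2 scale (SE 0.36, 95% interval 0.25 to 1.81, edgeR adjusted p = 0.0375), while in A1G tumours its difference was 0.12 (adjusted p = 0.832). That call rested on every library of the comparison: leaving out any 1 of the Ptch1 libraries 1, 2 and 3 gave adjusted p = 0.0573, 0.072 and 0.0982, and of the cerebellum libraries 0.0899, 0.113 and 0.0728. Cst3 fell in A1G tumours (log2 -1.65, adjusted p = 0.00301) and was at -0.68 in Ptch1 tumours (adjusted p = 0.124). Itih3 fell in A1G tumours as well (log2 -3.70, adjusted p = 0.00208, and -4.65 without A1G replicate 3) and was at -1.60 in Ptch1 tumours (edgeR adjusted p = 0.0577, DESeq2 0.0263, and 0.0116 in edgeR without Ptch1 replicate 1). Gfap differed from cerebellum by 0.27 in A1G tumours (95% interval -0.42 to 0.97, adjusted p = 0.547) and by -0.46 in Ptch1 tumours (95% interval -1.15 to 0.23, adjusted p = 0.277). For Slc6a11 the log2 differences were -0.70 (adjusted p = 0.428) and 0.86 (adjusted p = 0.293), and without A1G replicate 1 the former became -1.91 (adjusted p = 0.03).

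Other genes of the same and of neighbouring cell types were read from lists that share no gene with the 37. Of 25 tested further astrocyte and Bergmann glia genes 19 fell, 2 rose and 4 were not called, with a median log2 difference of -2.56 and a summed level in tumours of 42.1% of cerebellum. Most of that tumour sum (4980 CPM) came from Nfia (1417 CPM), Apoe (1187) and Slc1a2 (970.4), none of which was called lower. The largest falls were those of Aldoc, a glycolytic aldolase that Purkinje cells also express (log2 -5.70, edgeR adjusted p = 1.5e-07), Slc39a12, a zinc transporter (log2 -3.76, and -6.11 without Ptch1 replicate 2), Grin2c, a glutamate receptor subunit shared with granule neurons (log2 -3.64, and -5.79 without Ptch1 replicate 3), and Cldn10, a claudin (log2 -3.43, and -5.63 without Ptch1 replicate 2). The genes that rose were transcription factors of the glial lineage that neural progenitors also carry, Nfia (log2 2.48, edgeR adjusted p = 0.000172) and Sox9 (log2 1.43, edgeR adjusted p = 0.0375). Sox9 was not called in 5 of the 9 fits that leave out 1 library, up to adjusted p = 0.119. The 4 not called were Slc1a2, Apoe, Prdx6 and Itpr2, so that Slc1a2, the main astrocyte glutamate transporter of the forebrain, had a log2 difference of -0.34 while Slc1a3, the transporter of Bergmann glia, fell by 2.30 (edgeR adjusted p = 0.000186). Sox9 and Slc1a3 are also on the list of immature glia genes.

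Immature and radial glia genes were mixed, with 5 of 15 higher, 4 lower and 6 not called. Among them Nes, the progenitor intermediate filament, rose (log2 3.91, edgeR adjusted p = 0.000973, and 3.16 without Ptch1 replicate 2), as did the proteoglycan gene Ncan (log2 1.85, edgeR adjusted p = 6.08e-05), and Id4, an inhibitor of bHLH factors, fell by 4.46 on the log2 scale (edgeR adjusted p = 3.7e-06). Of 13 tested reactive astrocyte genes 6 rose, 1 fell and 6 were not called, with a median log2 difference of 1.26. For A1G tumours alone 2 rose and 1 fell, and for Ptch1 tumours alone 5 rose and 1 fell. Their summed level was 499.4 to 585.8 CPM in A1G tumours, 467.3 to 941.5 in Ptch1 tumours and 341.1 to 393.3 in cerebellum. The highest sum was that of Ptch1 replicate 1. Vim alone gave 352.6 of the mean 608.9 CPM in tumours. The 6 not called were Serpina3n, Cd44, Timp1, Vim, Gbp2 and Tm4sf1, and Lcn2, Cxcl10, C3, Ptx3 and Aspg were too low to be tested. Steap4, a metalloreductase, rose by a log2 difference of 3.54 (edgeR adjusted p = 0.00945, 2.83 without Ptch1 replicate 1 and 4.73 without cerebellum replicate 1). Emp1, a membrane protein, rose by 2.58 (edgeR adjusted p = 0.00631, and 3.57 without cerebellum replicate 1). The rise of S1pr3 was 1.81 (edgeR adjusted p = 0.00825), and that of the cytokine receptor gene Osmr 1.69 (edgeR adjusted p = 0.0405), whose call was lost in 6 of the 9 fits that leave out 1 library. Serping1 and Cp rose by 1.26 and 1.33 (edgeR adjusted p = 0.0357 and 0.0451). S100a10 fell by 1.56 on the log2 scale (edgeR adjusted p = 0.00826, and 0.0501 without cerebellum replicate 1).

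Marker lists of other cell types changed in both directions, and their part in the result was not tested. Granule neuron progenitor markers were at 553% of the cerebellum level in tumours (7 of 8 higher, 0 lower). Zic1, which was not called, gave 1206 of their mean 1309 CPM in cerebellum, so this percentage understates the others. Their median log2 difference was 4.84. Markers of mature granule neurons were at 16.9% (8 of 9 lower), of Purkinje cells at 3.72% (9 of 9 lower), of inhibitory interneurons at 4.13% (6 of 6 lower) and of oligodendrocytes at 3.515% (9 of 9 lower). The summed oligodendrocyte markers ranged from 337.5 to 435.2 CPM in A1G tumours, 72.93 to 387.3 in Ptch1 tumours and 7939 to 8502 in cerebellum, and Opalin was at 0 in every tumour library, as was the interneuron gene Slc6a5. Oligodendrocyte precursor markers were at 404% of cerebellum (4 of 6 higher). Pdgfra alone gave 551.5 of their mean 854.8 CPM in tumours. Gpr17 and Olig1 were not called (log2 -1.2 and -0.24), and Gpr17 was lower for Ptch1 tumours alone (log2 -1.83, edgeR adjusted p = 0.0277). Microglia and macrophage markers were at 208% (6 of 10 higher). Csf1r, Cx3cr1, Tmem119 and P2ry12 were not called (log2 0.03, -0.74, -0.3 and -0.16). For Ptch1 tumours alone Cx3cr1 was lower (log2 -1.01, edgeR adjusted p = 0.0345). Endothelial, pericyte and meningeal markers were at 47.9%, 58.0% and 57.1%, each with 4 genes lower and, in the meningeal list, 1 higher. The pericyte sum was 288.7 CPM in A1G replicate 1, with Abcc9 at 98.79 and Kcnj8 at 67.58. Cerebellum held 220.8 to 249.3 CPM of that list and the other tumour libraries 62.79 to 139.8. For A1G tumours alone Abcc9 was called higher (log2 2.06, edgeR adjusted p = 0.0408).

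The same lists were also read between the tumour kinds. Purkinje cell markers summed to 424.7 to 805.9 CPM in A1G and 243.4 to 347 in Ptch1 tumours, and Pcp2 was at 0 in every Ptch1 library. Their median log2 difference, A1G minus Ptch1, was 1.57, with all 9 genes positive, 7 at an unadjusted p under 0.05 and 1, Calb1, called (edgeR adjusted p = 0.00629). Interneuron markers ranged from 46.3 to 103.4 CPM in A1G and 15.98 to 28.12 in Ptch1 tumours. The median log2 difference was 1.09 for mature granule neuron markers and 1.36 for oligodendrocyte markers. No interneuron, mature granule neuron or oligodendrocyte marker was called between the tumour kinds in edgeR. At an unadjusted p under 0.05 there were 4 of 6 interneuron, 1 of 9 mature granule neuron and 4 of 9 oligodendrocyte markers. Over the 37 genes the median was 0.00, and over the further astrocyte and Bergmann glia genes it was -0.03. Of the 37 genes 19 had a positive log2 difference, and none was called (lowest edgeR adjusted p = 0.269). The part of other cells of normal cerebellum in these differences was not tested.

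**Figure D4:**
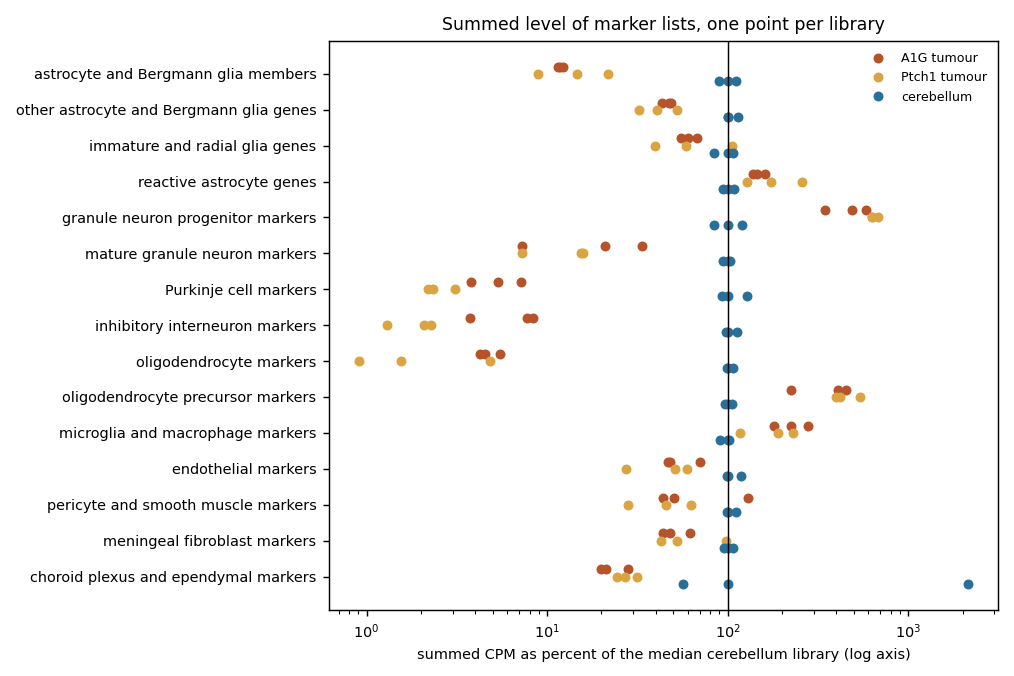
Summed CPM of the 37 genes and of each marker list (y axis) as percent of the median cerebellum library (x axis, log scale), with 1 point per library, coloured by group. The 37 genes lie well below 100 in every tumour library, further astrocyte genes lie nearer to it, and progenitor, oligodendrocyte precursor and microglia markers lie above it.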

How the data were processed

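RNA was measured in 9 libraries, 3 per group, sequenced on an Ion Proton from a total RNA kit for that instrument, per the labels. Per the submitters' processing notes the build was mm10 and Bowtie 0.12.2 was among the tools. The counter and annotation are not given in the sources used here. The deposited tables hold expected counts, which per the file headers are raw fragments per gene, a signal column of fragments scaled by the authors with 1 factor per library, and FPKM computed by the authors. From 1147 to 1440 genes per library held a fragment number that was not whole to within 1e-06, and fragments were rounded. No gene of the set carried a failed status. FPKM served for the filter, for ranks within a group and for the limma alternatives. Tumours and cerebellum may have been scaled separately, so FPKM is compared between groups only in the limma alternatives. Their differences between tumours and cerebellum carry that limit.

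Genes that reached 1 FPKM in 3 or more libraries were tested with edgeR 4.0.16 (quasi-likelihood, TMM scaling, 1 mean per group over all 9 libraries), with Benjamini-Hochberg adjustment over 14337 genes and 0.05 as threshold. The script was tested on simulated data. No replicate pair was alike within sampling noise (10.9 to 43.5 as chi-square over its degrees of freedom). Alternatives were median-of-ratios scaling, no filter and a stricter one (10 fragments in 3 libraries), DESeq2 1.42.0, limma 3.58.1 on log2(FPKM + 1) and log2(FPKM + 0.1), a replicate block, only the groups compared, and leaving out each library. R 4.3.3 and Python 3.11.15 were used.

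The 37 genes and all lists were chosen with earlier results of these data known. All 37 are accounted for. Values in every library are given for Gfap, Aqp4, Aldh1l1, S100b, Gdf10, Hopx, Slc4a4, Gja1 and the metallothioneins, for genes not called between tumours and cerebellum or higher in a tumour kind, for the 5 largest falls and for the 5 smallest p between tumour kinds. Those of Gpr37l1, Cst3 and Ndrg2 were added after their values were seen. From each other astrocyte or glia list up to 4 genes with the largest changes were named. Further ones there were chosen after their values were seen.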

Additional observations from a re-analysis of the deposited data

How the results depend on the processing

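The count of the 37 genes called between tumours and cerebellum was 32 to 33 over the fits that leave out each library, 32 to 33 for A1G tumours alone and 30 to 32 for Ptch1 tumours alone. Between A1G and Ptch1 tumours it was 0 in each of these fits and 2 with DESeq2, while over all genes tested 2 were called and the count became 81 without a filter, 163 with DESeq2, 0 with limma on log2(FPKM + 1), 0 with only the libraries compared and 0 to 4 when a library was left out. At an unadjusted p under 0.05 limma then had 1391 genes and the fit of the libraries compared 1308. Same-numbered libraries did not deviate together (correlations of -0.061 to 0.195), so the numbers were not taken to pair samples. With the replicate block 33 of the 37 genes were called between tumours and cerebellum, 32 for A1G and 32 for Ptch1 tumours, and 0 between tumour kinds. F3 (adjusted p = 0.0386) and, in Ptch1 tumours, Itih3 (adjusted p = 0.0477) were the genes of the set that passed with the block and not without it, and both also passed under other alternatives. Signs turned only where no call stood. Between tumours and cerebellum, leaving out a library gave -0.27 to 0.04 for Gfap, -0.53 to 0.44 for Slc6a11 and -0.46 to 0.38 for Chrdl1. Slc6a11 was at -0.02 with limma on log2(FPKM + 0.1) and -0.05 with the block, and Chrdl1 at 0.03 without a filter, 0.01 with limma on log2(FPKM + 1) and 0.01 with the block. For A1G tumours against cerebellum the ranges were -0.51 to 0.39 for Ptn and -1.30 to 0.06 for Chrdl1. Between tumour kinds the ranges over libraries left out were -0.44 to 1.09 for Aqp4, -0.38 to 1.32 for Aldh1l1, -0.90 to 1.36 for Hopx, -0.44 to 1.42 for Gja1, -1.70 to 0.02 for Fgfr3, -0.52 to 0.51 for Ttyh1, -0.35 to 0.34 for Slc7a10, -0.76 to 0.51 for Acsbg1, -0.78 to 0.52 for Mlc1, -0.71 to 0.64 for F3, -1.64 to 3.10 for Dao, -0.26 to 0.65 for Mfge8, -0.73 to 0.62 for Ednrb and -0.88 to 0.36 for Phkg1. Without a filter Aqp4 and Ednrb were each at -0.02. With limma on log2(FPKM + 1) and log2(FPKM + 0.1) the signs turned for Hopx (0.19 and 0.29), Ttyh1 (0.09 and 0.12, and 0.05 with the block), Mlc1 (0.06 and 0.16), F3 (0.11 and 0.21) and Phkg1 (0.02 and 0.32). The cause was not tested. The contrast of both tumour kinds with cerebellum uses all libraries, so no separate fit to the groups compared was made. Depth limits the low genes: a gene without a fragment may lie at up to 0.336 normalised CPM (3 fragments) in Ptch1 replicate 2, the deepest library, and up to 1.23 in A1G replicate 3.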
